A study of Mus musculus with 2 samples.

Results

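The BAFF and APRIL system was described through 5 genes of the 32285 in the deposited matrices: the receptors Tnfrsf13c (BAFF receptor), Tnfrsf13b (TACI) and Tnfrsf17 (BCMA), and the ligands Tnfsf13b (BAFF) and Tnfsf13 (APRIL). They were taken by symbol, and all 5 were found. The set was chosen by the measured level of Tnfrsf13c, already seen higher in the erythroid cells of the PHZ spleen, so those values are given as a description. Single live spleen cells came from C57BL/6 mice with chronic anaemia induced every 3 days for 1 month, in one group by PHZ (as the labels name it) and in the other by bleeding. Each group was 1 library, neither the number of mice nor pooling was given, and no untreated spleen was used here, so differences carry no replicate check and no p-value. The mice carried no labelled allele or transgene.

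BAFF binds all 3 receptors, whereas APRIL binds TACI and BCMA. The BAFF receptor signals mainly through the non-canonical NF-kB pathway, in which TRAF3 holds the kinase NIK (Map3k14) low until the receptor is engaged, and it keeps mature B cells alive in the spleen. TACI is prominent on marginal zone and B1 cells, BCMA belongs to plasma cells, and both ligands are made largely by myeloid and stromal cells. The BAFF receptor is not a textbook gene of the red cell lineage.

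Unique molecular identifiers (UMIs), 1 per captured mRNA molecule, were summed over the cells of a group and scaled to counts per 1000000 UMIs outside the haemoglobin genes (CPM). Brackets after a CPM or a ratio hold its 95% interval, exact Poisson for a CPM and exact conditional for a ratio, and shares have exact Clopper-Pearson intervals. All of these cover counting error only, not the spread between mice. The kit reads the 3′ end of each mRNA, so no value was scaled to gene length, and levels of different genes are not compared.

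Both libraries held enough cells for most groups, 6113 after PHZ and 8953 after bleeding, with medians of 12242 and 8045 UMIs per cell. They shared 15 cell barcodes. Cells were clustered without the 5 genes and named from marker lists, hence "-like", and erythroid-like cells were split by the haemoglobin share of their UMIs at 20, 50 and 80%. In the PHZ and bleeding cells at 20 to 50%, Klf1 stood at 568.8 and 599.2 CPM and Gata1 at 324.7 and 281.0 CPM, while Cd79a, part of the B cell antigen receptor, was at 6.94 and 18.1 CPM, against 1877.4 and 1968.8 CPM in follicular-like B cells. Cells within 5 points of a haemoglobin cut numbered 104 and 44 at 20%, 147 and 63 at 50% and 310 and 194 at 80%.

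Tnfrsf13c (ENSMUSG00000068105) lies on the minus strand of mouse chromosome 15 at 82221743 to 82224369 (GRCm38, GENCODE M21) and has at most 3 exons per transcript, with no annotated gene overlapping it on either strand. Tnfrsf13b (ENSMUSG00000010142) spans 61126755 to 61149372 of chromosome 11 on the plus strand and overlaps the antisense gene Gm12269. The 250 bases before the RefSeq start of these receptors are shown because their UMIs were found in different cells: Tnfrsf13c in B and erythroid cells, Tnfrsf13b in B and myeloid cells. Both are from RefSeq, build GRCm38.p6, written 5′ to 3′ on the gene's strand (Tnfrsf13c chr15:82224381-82224630, minus; Tnfrsf13b chr11:61126505-61126754, plus). Capitals mark matches to the NF-kB letters GGGNNNNNCC on either strand, of which those at -62 and -61 in Tnfrsf13b overlap.
Tnfrsf13c: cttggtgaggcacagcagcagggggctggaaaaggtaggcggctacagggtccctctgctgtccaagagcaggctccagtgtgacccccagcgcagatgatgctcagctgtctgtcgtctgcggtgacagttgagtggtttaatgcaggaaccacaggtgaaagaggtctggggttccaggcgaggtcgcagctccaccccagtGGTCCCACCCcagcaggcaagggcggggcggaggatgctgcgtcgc
Tnfrsf13b: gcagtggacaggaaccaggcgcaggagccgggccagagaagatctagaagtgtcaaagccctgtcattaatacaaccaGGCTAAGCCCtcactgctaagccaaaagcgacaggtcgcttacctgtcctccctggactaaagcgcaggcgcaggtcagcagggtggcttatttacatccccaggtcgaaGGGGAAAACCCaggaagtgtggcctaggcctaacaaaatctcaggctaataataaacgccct

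The Tnfrsf13c window held 1 such match, GGTCCCACCC, starting at position -46 from the start, and the Tnfrsf13b window held 3, starting at -172, -62 and -61. Neither window held the GATA letters GATAA, the EBF1 letters CCCNNGGG, the STAT letters TTCNNNGAA or the ETS letters GAGGAA, searched on both strands. Only these letters were searched, so other forms of each motif can be present. Among 32851 windows of this length, 45.8% held the NF-kB letters, 22.6% the GATA, 11.8% the EBF1, 7.02% the STAT and 23.3% the ETS letters, so a match to the NF-kB letters is common. A match describes letters and not a site.

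The other 3 genes are Tnfrsf17 (ENSMUSG00000022496) on chromosome 16 at 11313812 to 11320074, Tnfsf13b (ENSMUSG00000031497) on chromosome 8 at 10006467 to 10039072, with the antisense gene Gm44789, both on the plus strand, and Tnfsf13 (ENSMUSG00000089669) on the minus strand of chromosome 11 at 69682846 to 69685784. Tnfsf13 overlaps the read-through gene Tnfsfm13 on its own strand and Tnfsf13os on the other, so its counts are uncertain.

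Each gene had its own carriers among the cells. B cells held 73.7% of the 2569 Tnfrsf13c UMIs of PHZ cells and 96.8% of the 4422 UMIs of bleeding cells. Erythroid cells held 25% (23.4 to 26.8) of them after PHZ and 1.70% (1.34 to 2.12) after bleeding. Tnfrsf13b was likewise mainly a B cell gene, with 81.9% of 2415 UMIs in B cells after PHZ and 84.6% of 5316 after bleeding. Its remaining UMIs differed in place: monocytes held 5.13% after PHZ and 0.771% after bleeding, dendritic groups 4.72% and 2.18%, plasma cells 1.45% and 5.42%, and T cells 3.69% and 5.34%.

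Tnfrsf17 was nearly confined to plasma cells, which held 23 of its 27 UMIs after PHZ and 159 of 166 after bleeding; the others lay in monocytes and erythroid cells after PHZ and in B and erythroid cells after bleeding. Neutrophils held 84.6% of the 298 Tnfsf13b UMIs after PHZ and 55.2% of the 174 after bleeding. Tnfsf13 UMIs lay in monocytes (53.9% of 386 after PHZ and 33.9% of 192 after bleeding), neutrophils (26.9% and 7.29%), erythroid cells (14.0% and 17.2%) and red pulp macrophages (0.259% and 18.2%). These shares follow the cell mix of each spleen as well as the level per cell: the PHZ library held 284 cells in the neutrophil clusters and 17 red pulp macrophage-like cells, and the bleeding library 109 and 211.

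**Figure D1:**
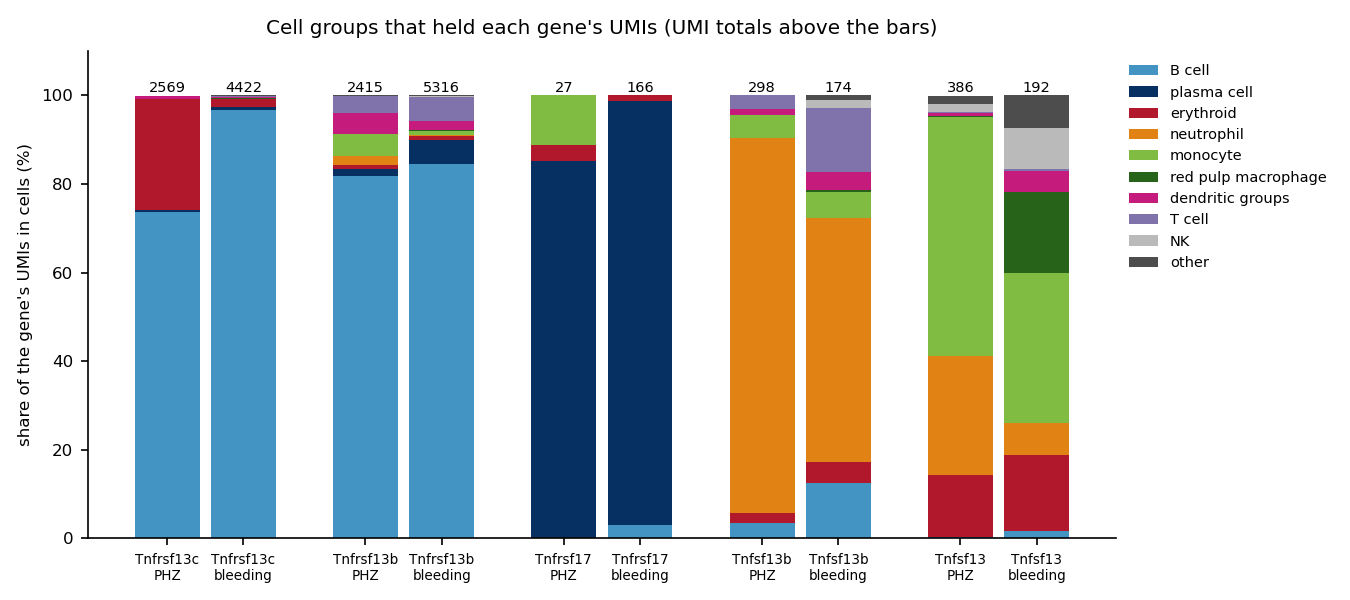
Share of each gene's UMIs (%, y axis) that lay in each cell group, with the PHZ bar left of the bleeding bar for each of the 5 genes. Erythroid cells hold 25% of Tnfrsf13c UMIs after PHZ and 1.70% after bleeding, and neutrophils hold 84.6% and 55.2% of Tnfsf13b UMIs.

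In the red cell lineage, Tnfrsf13c was the member that stood out, and it was concentrated in cells that had begun to fill with haemoglobin. Over all erythroid-like cells it reached 25.9 CPM in 3191 PHZ cells (643 UMIs) and 6.51 CPM in 2337 bleeding cells (75 UMIs). The ratio was 3.97 (3.12 to 5.12). Of the 7087 genes with a mean of at least 10 CPM in these cells, 0.395% had a whole interval above 1.5-fold higher after PHZ and 1.62% a whole interval below 1.5-fold lower, and Tnfrsf13c ranked first by its lower bound. This contrast was used to choose the gene, so nothing is read from its place.

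Below 20% haemoglobin, Tnfrsf13c stood at 8.62 CPM (7.16 to 10.3; 122 UMIs) in 350 PHZ cells and at 1.51 CPM (0.724 to 2.78; 10 UMIs) in 171 bleeding cells. The ratio was 5.71 (3.00 to 12.2). Clusters differed within this stage. After PHZ, cluster 14 held 48.0% of its cells and 86.5% of its UMIs outside haemoglobin genes, at 3.19 CPM of Tnfrsf13c, against 63.8 CPM in the 111 cells of cluster 17 (25 UMIs) and 39.6 CPM in the 43 cells of cluster 7 (58 UMIs). At 20 to 50% it was highest in both spleens, at 97.2 CPM (86.8 to 108.4; 322 UMIs) in 265 PHZ cells and 27.7 CPM (18.1 to 40.5; 26 UMIs) in 102 bleeding cells, a ratio of 3.51 (2.35 to 5.46). At this stage 0.372% of 6177 genes had a whole interval above 1.5-fold higher after PHZ and 1.55% below 1.5-fold lower.

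At 50 to 80%, Tnfrsf13c stood at 39.9 CPM (34.4 to 46.0; 191 UMIs) in 896 PHZ cells and at 11.6 CPM (7.18 to 17.7; 21 UMIs) in 388 bleeding cells, a ratio of 3.44 (2.19 to 5.68). Above 80% the order was the other way round: 3.06 CPM from 8 UMIs in 1680 PHZ cells and 8.35 CPM from 18 UMIs in 1676 bleeding cells, a ratio of 0.367 (0.138 to 0.887). Summed over each stage, the level was highest at 20 to 50% in each spleen, but the low value below 20% is mostly that of cluster 14.

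Finer bins of 10 points placed the highest value after PHZ at 30 to 40% haemoglobin, with 136.3 CPM (112.3 to 164.0) in 66 cells, against 16.2 CPM (4.40 to 41.4) in 31 bleeding cells. The next PHZ bin, at 40 to 50%, had an overlapping interval (90.5 to 128.7). On the way up, the PHZ cells had 3.26, 43.4 and 61.9 CPM in the bins at 0 to 10, 10 to 20 and 20 to 30%, and the bleeding cells 1.17, 4.58 and 32.6 CPM. On the way down, PHZ cells had 108.4, 83.0, 30.9 and 7.43 CPM from 40 to 80%, and bleeding cells 30.9, 13, 21.3 and 2.82 CPM. The bleeding values rest on 2 to 12 UMIs per bin and show no clear single peak.

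**Figure D2:**
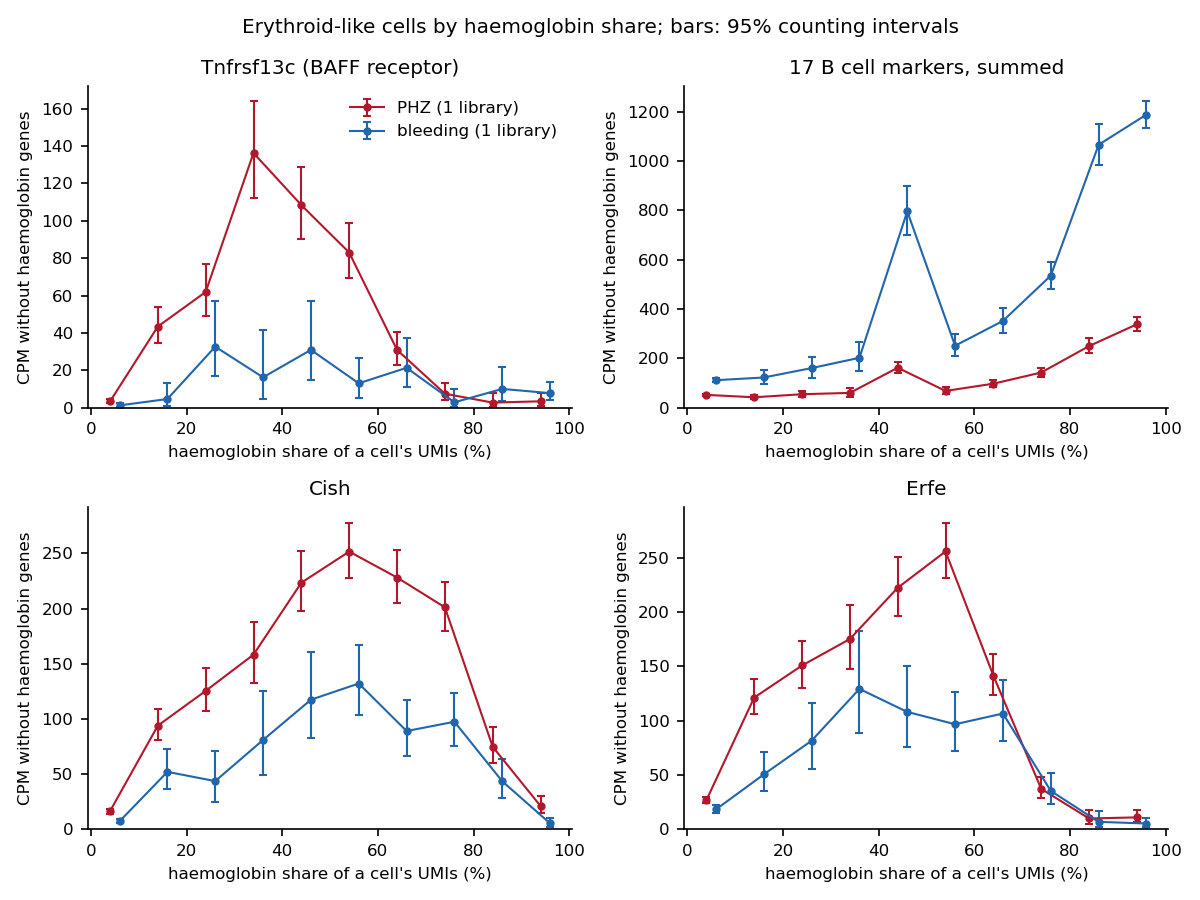
Level (CPM outside haemoglobin genes, y axis, linear) of the plotted genes in erythroid-like cells against the haemoglobin share of a cell's UMIs (%, x axis), 1 library per group, with bars for 95% counting intervals. Tnfrsf13c peaks at 136.3 CPM in the PHZ cells at 30 to 40% haemoglobin, where the bleeding cells stand at 16.2 CPM.

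The UMIs were spread over many cells. At 20 to 50% haemoglobin, 118 of 265 PHZ cells (44.5%, 38.4 to 50.7) held a Tnfrsf13c UMI, 46 of them 3 or more, and the most in 1 cell was 15. Of 102 bleeding cells, 16 (15.7%, 9.24 to 24.2) held one, 1 of them with 3 or more, at most 8. Below 20% the shares were 67 of 350 PHZ cells (19.1%) and 9 of 171 bleeding cells (5.26%), and at 50 to 80% 111 of 896 (12.4%) and 18 of 388 (4.64%).

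For comparison, a Tnfrsf13c UMI was held by 3 of 543 T cell-like cells after PHZ (0.552%) and 11 of 2156 after bleeding (0.510%). Their median depths were 8418 and 7819 UMIs outside haemoglobin genes. The erythroid cells at 20 to 50% had medians of 11395 and 7425. Thinned to 1000 such UMIs per cell, the shares with a Tnfrsf13c UMI were 6.18% after PHZ and 3.09% after bleeding at 20 to 50%, 3.5% and 0% below 20%, and 2.01% and 0.515% at 50 to 80%. At each of these stages the thinned shares of the PHZ and bleeding cells had overlapping intervals. At 20 to 50% these were 3.57 to 9.84 and 0.642 to 8.77.

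Over whole clusters, 4 carried most of the Tnfrsf13c UMIs. Cluster 7, led by histone and cell cycle genes, with a median haemoglobin share of 50.4%, held 479 of the 643 PHZ UMIs and 45 of the 75 bleeding UMIs, at 79.3 and 20.5 CPM, a ratio of 3.87 (2.85 to 5.37). Cluster 17, with a median haemoglobin share of 12.1% and 3758 UMIs per cell, had 62.2 CPM after PHZ and 11.3 CPM after bleeding (ratio 5.52, 1.74 to 28.0), and cluster 11 had 31.1 and 8.18 CPM (3.80, 1.19 to 19.4). In cluster 14, which expressed the early gene Car1, the median haemoglobin share was 1.71%. The level there was 6.35 CPM after PHZ and 0.691 CPM after bleeding, from 80 and 4 UMIs. Of the 80 PHZ UMIs, 41 lay in 16 cells at 20 to 50% haemoglobin (111.0 CPM). The 168 PHZ cells below 20% held 39 (3.19 CPM). The other 4 clusters, with medians of 74.5 to 92.7% haemoglobin, held 2 to 8 UMIs each after PHZ and 2 to 10 after bleeding, and differed in direction. Cluster 1 had a ratio of 0.146 (0.0155 to 0.684) and cluster 3 a ratio of 1.89 (0.353 to 10.2), at 9.97 CPM after PHZ and 5.26 CPM after bleeding.

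B cell RNA was present in erythroid-like barcodes and was higher after bleeding. Of 17 B cell markers, 9 reached 10 CPM there, and all 9 had a whole interval below 1.5-fold lower after PHZ (median log2 ratio -1.93), against 1.62% of all genes. At 20 to 50% haemoglobin this held for 8 of the 10 measured (median -2.11), against 1.55% of all genes. The 17 B cell markers together stood at 50.3, 94.5, 102.8 and 300 CPM from the lowest to the highest haemoglobin stage after PHZ, and at 112.2, 390.6, 393.9 and 1155.1 CPM after bleeding. Set against those markers, Tnfrsf13c had 1028.8 UMIs per 1000 marker UMIs at 20 to 50% haemoglobin after PHZ and 70.8 after bleeding. Below 20% the values were 171.3 after PHZ and 13.5 after bleeding, the latter from 10 UMIs. At 50 to 80% they were 388.2 and 29.5. In B cells the same quantity was 7.77 and 7.62, and in near-empty barcodes of 10 to 100 UMIs 16.8 and 6.56. Above 80% haemoglobin it was 10.2 and 7.23, within the range of B cells and near-empty barcodes.

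Within the 20 to 50% stage, the 118 PHZ cells with a Tnfrsf13c UMI had 110 CPM of the B cell markers, and the 147 without one had 71.1 CPM. Their median depths were 15461 and 7344 UMIs outside haemoglobin genes. In the other PHZ stages the markers ran the other way, at 38.0 CPM with and 52.8 CPM without a Tnfrsf13c UMI below 20%, and at 71.6 and 110.5 CPM at 50 to 80%. Bleeding cells at 20 to 50% had 166.4 CPM with and 467.7 CPM without one. In the other bleeding stages the markers were higher in cells with a Tnfrsf13c UMI. They stood at 259.2 CPM with and 99.7 CPM without one below 20%, and at 602.9 and 376.3 CPM at 50 to 80%. The bleeding cells with a Tnfrsf13c UMI numbered 9 below 20%, 16 at 20 to 50% and 18 at 50 to 80%. Epor, the erythropoietin receptor, stood at 181.3 CPM in PHZ cells with a Tnfrsf13c UMI and 213.9 CPM in those without one at 20 to 50%, at 246.5 and 127.4 CPM at 50 to 80%, and at 154.0 and 97.5 CPM over all PHZ erythroid-like cells. Without every erythroid-like cell that held any B cell marker UMI, 1855 PHZ and 609 bleeding cells remained, and the log2 ratio of Tnfrsf13c was 1.58 (0.88 to 2.38), against 1.99 over all of them.

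TACI did not accompany the BAFF receptor there. Tnfrsf13b had 23 UMIs in PHZ erythroid-like cells (0.925 CPM) and 45 in bleeding ones (3.91 CPM), a ratio of 0.237 (0.137 to 0.400), which followed the direction of the B cell markers. Of the UMIs of both receptors, Tnfrsf13c made up 98.8% (96.9 to 99.7) at 20 to 50% haemoglobin after PHZ and 89.7% (72.6 to 97.8) after bleeding. In near-empty barcodes the shares were 63.9% and 43.9%. Below 20% they were 93.8% after PHZ and 43.5% after bleeding. Tnfrsf17 had 1 and 2 UMIs in all erythroid-like cells.

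Cenpm, a centromere protein gene used as a neighbour on the same chromosome, did not show the difference: it stood at 53.8 and 55.3 CPM below 20%, 76.0 and 79.8 CPM at 20 to 50%, and 30.5 and 38.1 CPM at 50 to 80%, after PHZ and after bleeding in each pair. Over the 20 points formed by 10 haemoglobin bins in each library, the levels most like Tnfrsf13c among 8186 genes were those of Nudt4 (Pearson r 0.840 of log2(CPM + 1)), Map2k3 (0.830), Acot11 (0.812) and Erfe (0.796). The bins share libraries and depth, and this search was added after the values had been seen.

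Of the 18 erythropoietin response genes, 13 reached 10 CPM in erythroid-like cells. Those with a whole interval above 1.5-fold higher were 3 (Tfrc, Cish and Erfe), and none lay below 1.5-fold lower, against 0.395% and 1.62% of all genes tested. The median log2 ratio of the 13 was 0.04, the value of all genes tested. Cish, a feedback inhibitor of erythropoietin signalling, stood at 85.9 CPM after PHZ and 32.5 CPM after bleeding, a ratio of 2.65. Erfe, the erythroid hormone that lowers hepcidin, stood at 75.4 and 33.6 CPM (2.24), and Tfrc, the transferrin receptor, at 1536.2 and 915.4 CPM (1.68). Epor was at 109.7 and 103.8 CPM, and Bcl2l1, a survival gene below the receptor, at 540.4 and 635.4 CPM.

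After PHZ, Cish and Erfe were highest at 50 to 60% haemoglobin, a later bin than the highest of Tnfrsf13c. Cish had 251.6 CPM there after PHZ and 132.0 CPM after bleeding, its highest bin in both spleens. Erfe had 256.1 CPM there after PHZ and 96.7 CPM after bleeding, and its highest bleeding value was 129.3 CPM (88.4 to 182.5) at 30 to 40%. For Tnfrsf13c, Cish and Erfe, the interval of the highest PHZ bin overlapped that of the same gene at 40 to 50%.

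None of the measured genes that carry BAFF receptor signals had its whole interval beyond 1.5-fold in erythroid-like cells. Of 20 NF-kB genes below the receptors, 11 reached 10 CPM, 0 lay beyond 1.5-fold either way by this rule (0.395% of all genes higher and 1.62% lower, so a count of 0 is near the background), and the median log2 ratio was 0.01. Otud7b, a deubiquitinase that acts on TRAF3, stood at 44.8 CPM after PHZ and 33.2 CPM after bleeding, Chuk (the kinase IKK-alpha) at 35.1 and 27.9 CPM, and the adaptor and ligase genes Traf5 and Birc2 at 30.2 and 31.0 CPM and at 27.6 and 28.9 CPM. Map3k14, the kinase NIK, had 11 and 23 UMIs (0.442 and 2.0 CPM), and Nfkb2, its substrate p100, 3.14 and 2.95 CPM.

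Of 13 genes of receptor shedding, ligand processing and proteoglycan co-receptors, 7 were measured with 0 beyond 1.5-fold. That is near the share of all genes, 0.395% higher and 1.62% lower. Adam10, a sheddase of the BAFF receptor and TACI, stood at 539.6 CPM after PHZ and 447.9 CPM after bleeding. The gamma-secretase subunit Psenen stood at 78.8 and 95.5 CPM. Of 14 survival and B cell target genes, 5 were measured, again with 0 beyond 1.5-fold, and Pim1 stood at 854.8 and 628.9 CPM. At 20 to 50% haemoglobin, 0 of 8 NF-kB, 0 of 7 processing and 0 of 6 survival genes lay beyond 1.5-fold either way, while 2 of 9 erythropoietin response genes (Cish and Socs3) had their whole interval above it. Over all genes at this stage, 0.372% lay above 1.5-fold higher and 1.55% below 1.5-fold lower.

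In B cells, both receptors of mature B cells were close in the 2 spleens. Tnfrsf13c reached 187.6 CPM in 1576 PHZ cells and 176.0 CPM in 3468 bleeding cells, a ratio of 1.07 (1.01 to 1.13), and 59.8% and 59.4% of the cells held a UMI. Tnfrsf13b reached 195.8 and 182.4 CPM, also 1.07 (1.02 to 1.13), with a UMI in 64.1% and 62.7%. By comparison, 0.967% of 8275 genes had a whole interval above 1.5-fold higher after PHZ and 0.218% below 1.5-fold lower.

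Among B cell subsets with at least 20 cells in each library, Tnfrsf13c was highest in the cluster led by Agbl1. That cluster stayed unnamed: 3 of 11 transitional B cell markers passed there, but none was among its top 10 genes by fold. Those top genes included Akap12, a marker from the list for B cell precursors. Tnfrsf13c stood there at 290.1 CPM (266.8 to 315.0) after PHZ and 310.6 CPM (287.2 to 335.4) after bleeding. Next were the cluster led by Pxdc1, with 222.0 and 248.8 CPM, and the activated-like cells, with 210.6 and 175.7 CPM. After PHZ the intervals of the last 2 overlapped (200.6 to 245.1 and 179.6 to 245.4), while after bleeding they did not (235.0 to 263.2 and 158.5 to 194.2).

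Of the subsets of that size, lower levels were found in interferon cells (146.5 CPM after PHZ and 163.0 after bleeding), follicular-like cells (137.5 and 132.1), the Alcam cluster (127.5 and 135.1) and marginal zone-like cells (129.4 and 113.8). The intervals of these 4 groups overlapped after PHZ. The cluster with Il7r and Rag1, genes of B cell precursors, had 106.6 CPM in 83 PHZ cells and 67.8 CPM in 6 bleeding cells. Germinal centre-like cells, of which the PHZ spleen held 2, had 176.6 CPM in 49 bleeding cells, next to the 175.7 CPM of the activated-like cells.

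B1-like cells were the subset whose Tnfrsf13c interval lay wholly above 1, with 161.0 CPM (119.5 to 212.3) in 30 PHZ cells and 103.0 CPM (85.2 to 123.3) in 97 bleeding cells, a ratio of 1.56 (1.10 to 2.19). Their Tnfrsf13b ran the other way, at 202.9 and 260.0 CPM (0.780, 0.585 to 1.03). Tnfrsf13c thus made up 44.2% (34.9 to 53.9) of the UMIs of both receptors after PHZ and 28.4% (24.1 to 33.0) after bleeding.

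Tnfrsf13b was ordered differently over the same subsets. After PHZ it was highest in the Agbl1 cluster (246.7 CPM, 225.2 to 269.7), marginal zone-like cells (220.3 CPM, 191.3 to 252.6), B1-like cells (202.9 CPM) and the Pxdc1 cluster (202.2 CPM). After bleeding B1-like cells led with 260.0 CPM (231.3 to 291.3), followed by the Agbl1 cluster with 233.9 CPM (213.7 to 255.6), and marginal zone-like cells with 200.2 CPM (187.2 to 213.9). Neighbours in these orders had overlapping intervals. Follicular-like cells were lower, at 170.8 and 150.9 CPM. Germinal centre-like cells had 91.6 CPM after bleeding, and the 6 bleeding cells of the Il7r and Rag1 cluster 237.4 CPM from 7 UMIs.

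The balance of the 2 receptors in UMIs therefore differed between subsets. Tnfrsf13c made up 37.0% (31.8 to 42.5) of both in marginal zone-like cells after PHZ and 36.3% (33.7 to 38.8) after bleeding. In the Agbl1 cluster it made up 54.0% (51 to 57.1) and 57.0% (54.1 to 59.9), and in germinal centre-like cells 65.8% (60.4 to 71.0) after bleeding. Both receptors were seen in the same cell in 183 of 311 Agbl1 cells after PHZ and 195 of 333 after bleeding.

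**Figure D3:**
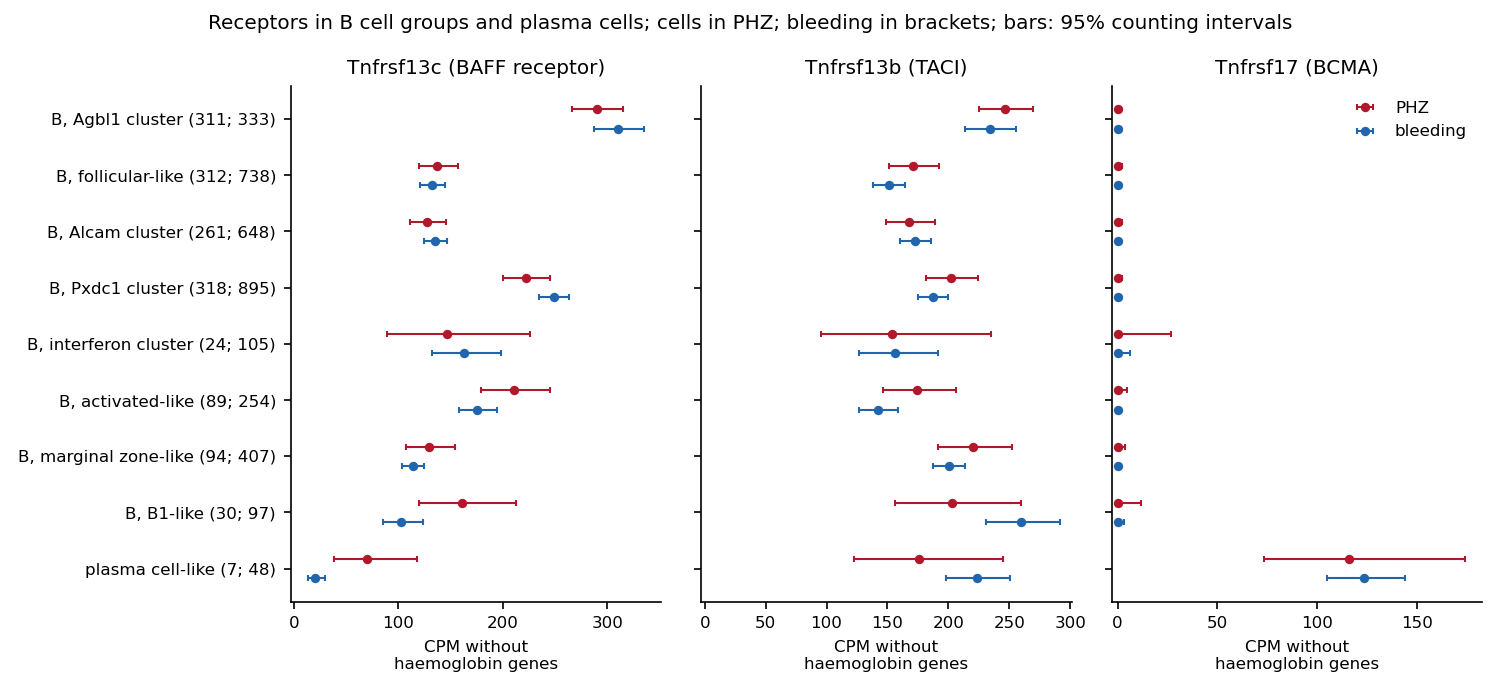
Level (CPM outside haemoglobin genes, x axis, linear) of the receptors in each B cell subset and in plasma cell-like cells, with cell numbers in brackets (PHZ; bleeding) and bars for 95% counting intervals. Tnfrsf13c is highest in the Agbl1 cluster at 290.1 and 310.6 CPM, and Tnfrsf17 is at 115.8 and 123.3 CPM in plasma cell-like cells.

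Across the 24 cell groups with at least 50 cells, the genes with levels most like Tnfrsf13c among 12489 were Ly6d (Pearson r 0.898), Cd79a (0.895), Ms4a1 (0.892), Chst3 (0.888) and Pax5 (0.886). Those most like Tnfrsf13b were Irf4 (0.912), Rapgef5 (0.907), E330020D12Rik (0.884), Ero1lb (0.876) and Clec2g (0.875). Between the 2 receptors r was 0.544. The groups share libraries and depth, so these are descriptions.

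The NF-kB genes were better covered in B cells, where all 20 reached 10 CPM and 0 lay beyond 1.5-fold either way (0.967% of all genes higher and 0.218% lower). Their median log2 ratio was 0.06, against 0.04 for all genes tested. Birc3, a ligase that acts on NIK, stood at 420.0 CPM after PHZ and 380.7 CPM after bleeding, Nfkb1 at 323.7 and 313.9 CPM, Traf3 at 291.1 and 277.7 CPM and Rel at 264.2 and 269.7 CPM. Of the 17 B cell markers, all measured, 1 lay above 1.5-fold (Spib, a transcription factor gene of B cells, at 262.8 and 164.3 CPM, a ratio of 1.60), 0 below it, and their median was 0.04. Of 8 processing genes, 0 lay beyond 1.5-fold, and Adam10 stood at 181.4 and 147.2 CPM.

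Of 14 survival and B cell target genes, 1 had its whole interval above 1.5-fold in B cells, where 0.967% of all genes did. Bcl2l1 (Bcl-xL, which blocks cell death) stood at 26.2 CPM after PHZ and 8.99 CPM after bleeding, a ratio of 2.92 (2.42 to 3.52). The same gene was the 1 of 9 measured erythropoietin response genes above 1.5-fold in B cells (list median 0.37 on the log2 scale). It reached 540.4 and 635.4 CPM in erythroid-like cells, where its ratio was 0.851. The B cell-like cells included a cluster of 46 PHZ and 45 bleeding cells with a median haemoglobin share of 57.05%, among 1576 and 3468 cells. The part of that cluster, and of erythroid RNA, in the B cell value of Bcl2l1 was not tested. Bcl2 stood at 431.6 and 441.6 CPM, Mcl1 at 438.7 and 356.2 CPM, Fcer2a (CD23) at 407.8 and 430.9 CPM, and Cr2 (CD21), a marginal zone gene, at 553.1 and 833.8 CPM. The PHZ spleen had 94 marginal zone-like cells among its B cells and the bleeding spleen 407.

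Plasma cells carried BCMA and TACI. Tnfrsf17 had 23 UMIs in 7 PHZ plasma cell-like cells (115.8 CPM, 73.4 to 173.8) and 159 in 48 bleeding cells (123.3 CPM, 104.9 to 144.0), a ratio of 0.939 (0.579 to 1.46). It was seen in 5 of 7 PHZ cells and 36 of 48 bleeding cells, and each of these cells also held Tnfrsf13b. In T cell-like cells no Tnfrsf17 UMI was found in 543 PHZ and 2156 bleeding cells, which allows 3 cells of the total, a share of up to 0.552% and 0.139%, while the two-sided exact intervals reach 0.677% and 0.171%.

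Tnfrsf13b stood at 176.3 CPM in the PHZ plasma cells and 223.4 CPM in the bleeding ones (ratio 0.789, 0.539 to 1.12), in all 7 PHZ cells and 46 of 48 bleeding cells. Tnfrsf13c was lower than in B cells, at 70.5 CPM from 14 UMIs after PHZ and 20.2 CPM from 26 UMIs after bleeding, a ratio of 3.5 (1.69 to 6.95) that rests on 7 PHZ cells. Over all cells, Tnfrsf17 had 4.42 UMIs per 1000 PHZ cells and 18.5 per 1000 bleeding cells.

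TACI was also found outside the B lineage. Monocyte-like cells had 65.6 CPM of Tnfrsf13b after PHZ and 64.2 CPM after bleeding, a ratio of 1.02 (0.727 to 1.46), with a UMI in 48.1% and 46.5% of cells. The class that adds red pulp macrophages to monocytes had a ratio of 1.89 (1.38 to 2.61), at 64.3 and 34.1 CPM. That class held 17 red pulp macrophage-like cells after PHZ and 211 after bleeding, and their Tnfrsf13b was at 0 and 11.9 CPM.

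Among dendritic groups, plasmacytoid-like cells had 151.2 CPM in 13 PHZ cells and 173.5 CPM in 12 bleeding cells, and the Cd209a cluster 127.7 and 94.7 CPM. The Klri1 and Mmp12 cluster had 71.6 and 57.0 CPM. In the Xcr1 cluster, the cross-presenting type, the values were 35.8 CPM in 16 PHZ cells and 12.6 CPM in 30 bleeding cells, a ratio of 2.84 (1.24 to 6.78), and its B cell markers were at 1270.6 and 377.7 CPM; their part in the result was not tested.

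T cell-like cells had 18.6 CPM of Tnfrsf13b after PHZ and 16.0 CPM after bleeding (1.16, 0.903 to 1.47), with a UMI in 14.5% and 11.3% of cells. The cluster with Foxp3, the regulatory T cell factor, had 34.5 and 31.3 CPM, the Cd8a cluster 13.9 and 12.7 CPM, and the main Cd4 cluster 16.7 and 15.7 CPM. Monocytes, at 270.6 Tnfrsf13b UMIs per 1000 B cell marker UMIs after PHZ and 104.8 after bleeding, stood above near-empty barcodes, at 9.51 and 8.39. Tnfrsf13c was at 0 UMIs in the Ccr2 and Fn1 monocytes of both spleens.

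Among the captured cells, of which no cluster was named stromal or endothelial, BAFF was mainly a neutrophil transcript. Tnfsf13b reached 63.0 CPM (55.4 to 71.2; 252 UMIs) in 294 PHZ neutrophil-like cells and 86.4 CPM (70.1 to 105.4; 97 UMIs) in 111 bleeding cells, a ratio of 0.729 (0.574 to 0.931). It was seen in 39.1% and 43.2% of them, against 0.444% and 0.461% of B cells. Over the whole libraries it was more abundant after PHZ, with 48.7 UMIs per 1000 cells and 19.4 after bleeding; neutrophil-like cells numbered 294 of 6113 and 111 of 8953.

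Along neutrophil maturation, Tnfsf13b was lower in the Elane cluster, which makes primary granules, at 35.6 CPM (27.5 to 45.4) after PHZ and 55.9 CPM (34.1 to 86.3) after bleeding. It was highest in the clusters with the secondary granule gene Ltf, at 108.4 CPM (91.7 to 127.2) and 118.5 CPM (90.9 to 152.0). In the mature Il1b cluster it stood at 46.8 CPM (28.6 to 72.3) and 58.5 CPM (32.0 to 98.2), and in the Retnlg cluster at 60.8 CPM in 36 PHZ cells, with 1 bleeding cell. Within each cluster that both spleens filled, the intervals of PHZ and bleeding overlapped.

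Monocyte-like cells held less of this ligand, at 8.40 CPM after PHZ and 14.7 CPM after bleeding (ratio 0.571, 0.249 to 1.36), from 16 and 11 UMIs. Erythroid-like cells held 7 and 8 UMIs. The levels most like Tnfsf13b over the 24 groups were those of Dgat2 (r 0.976), Clec5a (0.949), Padi4 (0.949), Gm38843 (0.944) and Ltb4r1 (0.943).

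APRIL was highest in monocytes, which held 53.9% of its UMIs after PHZ and 33.9% after bleeding. Tnfsf13 reached 126.9 CPM (109.0 to 147.0) in the Ccr2 and Fn1 monocytes after PHZ and 120.4 CPM (89.9 to 157.8) after bleeding, a ratio of 1.05 (0.770 to 1.47). The Cd300e monocytes had less, 67.2 CPM (45.3 to 96.0) and 61.8 CPM (32.9 to 105.6). Over both monocyte groups the ratio was 1.02 (0.790 to 1.34), at 112.4 and 109.7 CPM. With red pulp macrophages added, it was 1.66 (1.32 to 2.10), at 110.6 CPM in 171 PHZ cells and 66.5 CPM in 282 bleeding cells. The macrophages alone had 25.3 CPM from 1 UMI and 34.6 CPM from 35 UMIs.

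Early neutrophils carried APRIL too. The Elane cluster had 103 Tnfsf13 UMIs in 46 PHZ cells (56.5 CPM, 46.1 to 68.5) and 8 in 12 bleeding cells (22.3 CPM, 9.65 to 44.0), a ratio of 2.53 (1.24 to 6.01), while the later Ltf clusters had 1 and 6 UMIs. NK cell-like cells had 15.4 and 15.6 CPM from 7 and 18 UMIs. Erythroid cells below 20% haemoglobin had 3.46 CPM (49 UMIs) and 3.78 CPM (25 UMIs), of which cluster 14 held 48 and 24, and near-empty barcodes had 5.38 and 3.62 CPM.

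The antisense gene Tnfsf13os was seen in the same monocytes, at 35.6 CPM after PHZ and 23.1 CPM after bleeding, and had the level most like Tnfsf13 over the 24 groups (r 0.920). Rnf217 (0.896), Hsd3b7 (0.891), Dock1 (0.885) and Fkbp1b (0.866) came next.

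**Figure D4:**
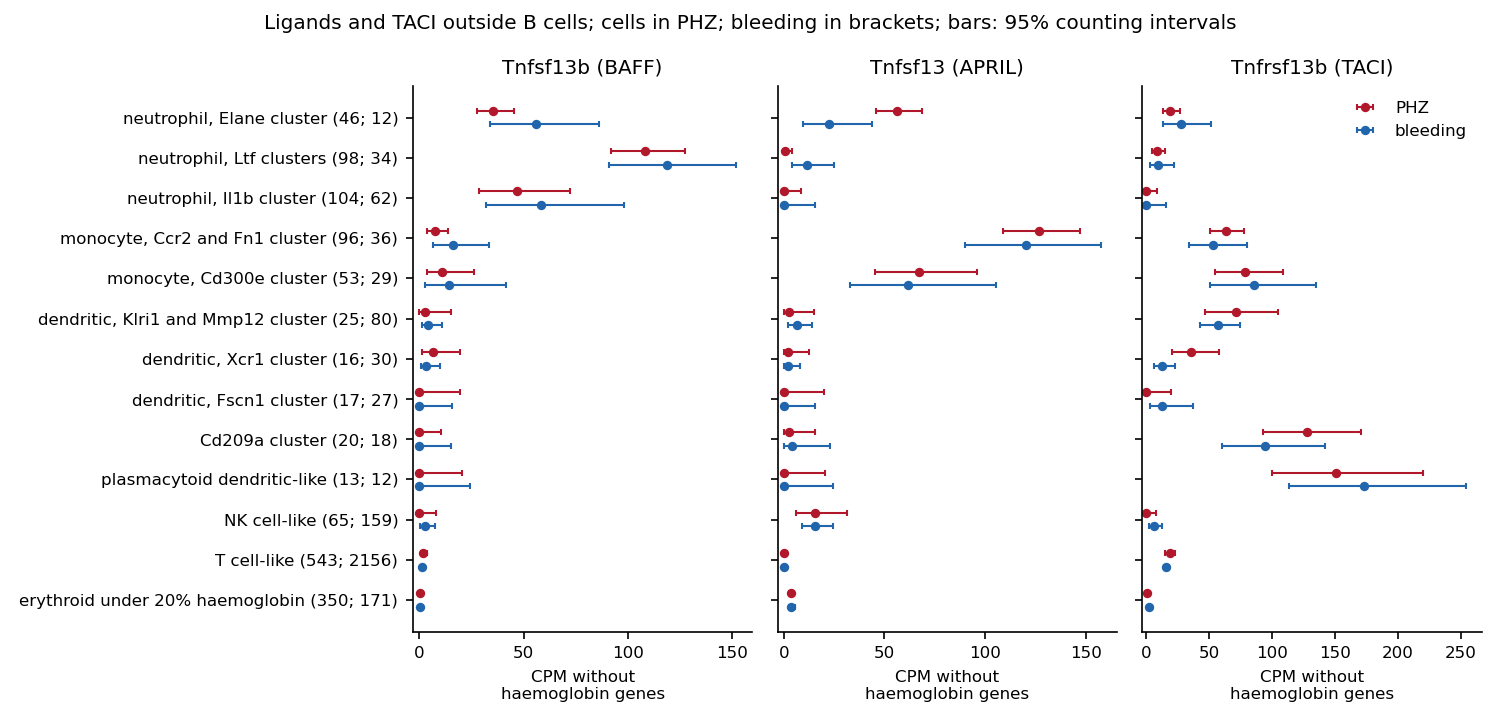
Level (CPM outside haemoglobin genes, x axis, linear) of the plotted genes in myeloid and other non-B groups, with cell numbers in brackets (PHZ; bleeding) and bars for 95% counting intervals. Tnfsf13b is highest in the Ltf neutrophils at 108.4 and 118.5 CPM, and Tnfsf13 in the Ccr2 and Fn1 monocytes at 126.9 and 120.4 CPM.

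Set side by side, the ratio of Tnfrsf13c was 5.71, 3.51 and 3.44 in the 3 stages below 80% haemoglobin, 0.367 above 80% and 1.07 in B cells. The erythroid contrast was used to choose the gene and each ratio rests on 1 library per group, so their difference was not tested.

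**Figure D5:**
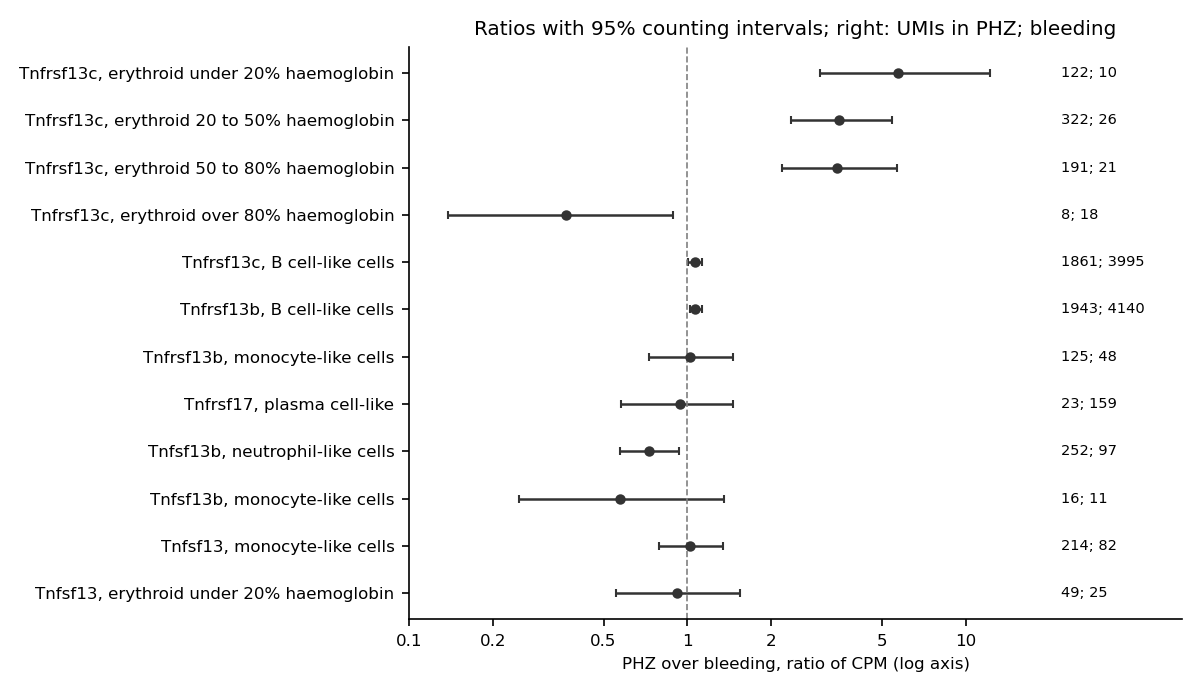
Ratio of CPM, PHZ over bleeding (x axis, log scale), for the members in the cell groups named on the y axis, with bars for exact 95% counting intervals from 1 library per group and a dashed line at 1. Tnfrsf13c lies at 5.71, 3.51 and 3.44 in the erythroid stages below 80% haemoglobin, at 0.367 above 80% and at 1.07 in B cells.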

How the data were processed

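Spleen cells of 2 groups, 1 library each, were profiled with the 10x Chromium 3′ v3.1 kit. The authors deposited raw UMI counts per gene and barcode, with Cell Ranger 7.0.0 and mm10 named in the submitters' processing notes; whether intronic reads were counted is not given in the sources used here. The file names 4 as its format version, and 0 columns were left without a sample. Barcodes with at least 1000 UMIs, 300 genes and at most 10% mitochondrial UMIs were kept. Of these, the 332 PHZ and 754 bleeding barcodes with the highest Scrublet scores, as run in scanpy, were removed as doublets. Their number was set in advance, at 0.8% per 1000 cells, and not by a cut on the score. Cells were clustered with scanpy 1.11.5 and leidenalg 0.10.2 (2000 variable genes, 30 components, 15 neighbours, resolution 1) without the 5 genes.

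As each treatment had a single library, treatments were not tested against each other. UMIs were summed over groups, scaled to CPM outside haemoglobin genes and given exact intervals (scipy 1.17.1), which cover counting error only. A gene was called where the interval bound nearest 1 lay beyond 1.5-fold, among genes of at least 10 CPM. The interval code was tested on simulated data. From each list, the 4 genes with the most UMIs and those beyond 2-fold are named, with a few others chosen after their values were seen. The members, lists and markers were chosen with earlier results of these data known. Alternatives covered depth, filters, doublets, background and haemoglobin cuts.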

Additional observations from a re-analysis of the deposited data

Results flagged for a closer look

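The PHZ over bleeding ratio of Tnfrsf13b lay on opposite sides of 1 in different cell classes: 0.237 in erythroid-like cells, 1.07 in B cell-like cells and 1.89 in monocyte or macrophage-like cells. The last class held 17 red pulp macrophage-like cells after PHZ and 211 after bleeding, and its monocytes alone had a ratio of 1.02. The 17 B cell markers in erythroid-like cells were at 92.5 CPM after PHZ and 374.2 CPM after bleeding. The part of either in the ratios was not tested.

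Tnfrsf13c likewise differed between haemoglobin stages, with ratios of 5.71 below 20%, 3.51 at 20 to 50% and 3.44 at 50 to 80%, against 0.367 above 80%, where 8 PHZ and 18 bleeding UMIs were counted. B cell markers there stood at 300 and 1155.1 CPM. None of these differences between cell groups was tested, since each rests on 1 library per group.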

How the results depend on the processing

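The log2 ratio of Tnfrsf13c in erythroid-like cells, 1.99 as reported, stayed above 0 under every alternative run. It was 2.42 with haemoglobin UMIs in the total, which moved the median of all genes by 0.43, and 1.34 with each cell weighted alike, which moved that median by 0.32. It was 1.55 with no doublets removed, 4.59 after subtracting a 10% background, and 1.58 without cells holding a B cell marker UMI. The 4.59 has no interval and is not read as a size. Bleeding cells stood at 6.51 CPM and near-empty bleeding barcodes at 56.3 CPM, so the subtraction left little of the bleeding value. As a mean over the 4 haemoglobin stages, added after the data were seen, it was 1.17. The cause of these shifts was not tested beyond the common median. The log2 ratio of Tnfsf13 in monocyte or macrophage-like cells was 0.73 as reported and 1.41 with haemoglobin UMIs in the total, which moved the median by 0.68. The log2 ratio of Tnfsf13b in the same class, 0.27 (-0.90 to 1.48), was 0.95 with haemoglobin UMIs in the total and 0.86 without the 3 highest cells per library; no alternative was run for monocytes alone. The ratios of Tnfrsf13c and Tnfrsf13b in B cells and of Tnfsf13b in neutrophils stayed within counting error of the reported ones under all the alternatives run for them. Some intervals reached across 0, though the reported ones did not. With no doublets removed, the log2 ratio of Tnfsf13b in neutrophils was -0.27 (-0.59 to 0.05). With haemoglobin UMIs in the total, the log2 ratios in B cells were 0.03 (-0.05 to 0.11) for Tnfrsf13c and 0.04 (-0.04 to 0.12) for Tnfrsf13b. With cuts at 10, 40 and 70%, Tnfrsf13c stood at 3.26, 68.5, 70.7 and 4.73 CPM after PHZ and at 1.17, 15, 20.4 and 6.98 CPM after bleeding. With every list member that had a UMI counted, 17 B cell markers, 6 survival genes and 4 NF-kB genes were lower and 5 erythropoietin response genes higher in erythroid-like cells after PHZ, 1 erythropoietin response gene was lower at 20 to 50% haemoglobin and 3 were higher in B cells. No share over all genes was at hand for this filter, so these counts are not read as results about the lists.

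With 1 library per group, leaving out a library was not an option and the spread between mice is unknown. No paired analysis was possible because each group is 1 library and no result comes from a test.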
